A study of Ovis aries with 36 samples.

Results

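A set of 10 genes of chromatin structure and DNA methylation was followed across fetal sheep tissues: MBD3, HIRA, SATB1, H1FX, HIST2H2BE, HDAC4, DNMT1, DNMT3A, TET2 and TET3. The members were taken by gene name from the deposited tables, and the loci that carried the same name were summed. All 10 members were found in every tissue, among 21601 genes named in all 3 tissues. HIRA was higher in muscle of fetuses from both other maternal diets than in muscle of fetuses from corn-fed ewes, and HDAC4 was higher in the haylage group than in the corn group. By edgeR no member passed the test between diets in either fat depot. DESeq2 called MBD3 and H1FX in perirenal fat and SATB1 in subcutaneous fat. In muscle DESeq2 also called HDAC4 and MBD3 between distillers grains and corn, and SATB1, HIST2H2BE and TET3 between haylage and corn.

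DNA in the nucleus is wound around histone proteins, and its packing sets which genes can be read. Methyl groups are placed on cytosines by DNA methyltransferases, of which DNMT1 copies an existing pattern at cell division and DNMT3A lays down a new one, while TET2 and TET3 oxidise the methyl group and so start its removal. MBD3 is a subunit of the NuRD complex, which slides nucleosomes and removes acetyl groups from histones. HIRA is a chaperone that places the histone variant H3.3 in chromatin outside of DNA replication. H1FX is a linker histone that sits on the DNA between nucleosomes, and HIST2H2BE is a member of the histone H2B family. SATB1 holds AT-rich stretches of DNA in loops, and HDAC4 is a class II deacetylase that binds MEF2 factors and is known in muscle as a brake on their target genes. Methyl groups for DNA and histones come from the diet through the folate and methionine cycles.

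Polypay ewes were fed during mid-to-late gestation on freely offered alfalfa haylage (HY, called hay in the labels), on limited amounts of corn (CN) or on limited amounts of dried corn distillers grains (DG), and RNA was taken from the longissimus dorsi muscle, the subcutaneous fat and the perirenal fat of 26 fetuses from 15 dams. RNA of the fetuses was combined into pools before sequencing, so that each diet and tissue had 4 pools, 2 of female (F1 and F2) and 2 of male fetuses (M1 and M2), and 36 libraries in all. Each pool held 1 or more fetuses, and some pools of a diet held fetuses of the same dam, so that p-values measured the spread between pools, not between dams.

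Library totals ran from 6705766 to 29625146 counts with a median of 14406914. In muscle the CN totals of 13749762 to 19387181 lay below the DG totals of 20370147 to 29625146. Libraries of the same group differed by far more than sampling noise (the chi-square over its degrees of freedom was 9.8 or more in each of 54 pairs), so that none was counted as a repeat. Summed skeletal muscle markers (myosins, troponins, creatine kinase and others, 8 or 9 genes of the list in the tables) reached 72700 to 107000 CPM (counts scaled to the normalized library size) in the muscle libraries and 15.5 to 484 CPM in perirenal fat. In subcutaneous fat the same sum ran from 487 to 87100 CPM, which overlapped the muscle range, so that several pools labelled subcutaneous fat carried the markers of muscle. Adipocyte markers summed to 2130 to 11100 CPM in subcutaneous fat and 6370 to 17100 CPM in perirenal fat, against 85.8 to 178 CPM in muscle, where LEP was at 0.

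In the sheep build Oar_v3.1 the members lay on 6 chromosomes. As placed in the muscle tables, HDAC4 (2120142 to 2202342), HIST2H2BE (98902677 to 98905467) and SATB1 (273521291 to 273600112) were on chromosome 1, and TET3 (95739756 to 95843125) and DNMT3A (32522791 to 32601832) on chromosome 3. DNMT1 (12361125 to 12414404) and MBD3 (41349664 to 41362091) were on chromosome 5. HIRA spanned 71830583 to 71874348 on chromosome 17 and H1FX spanned 58969291 to 58969987 on chromosome 19. These spans cover exons, introns and UTRs together, so that no level was compared between genes. TET2 was on chromosome 6 at 20052660 to 20189237 in muscle, but in perirenal fat it appeared as a pair of loci over 20001617 to 20189117, of which 1 had 0 counts. A neighbour that overlaps TET2, ENSOARG00000000332, held 6431 counts in the 12 muscle pools and 12806 in the 12 perirenal pools, against 49049 and 2926 for TET2. HIRA was 33491 bp long in the subcutaneous tables and 43766 bp in the muscle tables. HIST2H2BE belongs to a histone family with near-identical copies and H1FX to the linker histone family. Their counts may hold reads of other family members.

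The first comparison asked where the genes were expressed. On the scale that normalized all 36 libraries together, SATB1 averaged 35.8 ± 13.3 CPM in muscle, 13.6 ± 12.1 in subcutaneous fat and 4.01 ± 0.807 in perirenal fat (SD, n = 12 pools per tissue throughout this comparison). Each step in that order passed the test, with a log2 difference of 1.69 (SE 0.229) between muscle and subcutaneous fat and of 1.41 (SE 0.242) between the fat depots. H1FX had another order, with 60.1 ± 23.1 CPM in muscle, 11.8 ± 5.94 in perirenal fat and 4.76 ± 4.75 in subcutaneous fat, where the pools ranged from 0.167 to 14.1 CPM. Its muscle level was 15-fold that of subcutaneous fat in the fit (log2 3.91, SE 0.349). Muscle was thus the highest tissue for both genes. Over the 12 subcutaneous pools SATB1 had a Pearson r of 0.811 with the skeletal muscle markers. In the 4 subcutaneous pools whose skeletal muscle markers summed to under 2000 CPM, a limit set after seeing the data, it was at 3.63 to 6.295 CPM, and without the other 8 subcutaneous libraries the log2 difference between the depots was 0.25 (SE 0.253, FDR 0.454). That fit kept only pool M1 of CN, pool M1 of DG and pools F1 and M1 of HY in subcutaneous fat. All values without the other 8 libraries, here and below, therefore rest on few pools. H1FX stayed lower in subcutaneous than in perirenal fat in that fit (log2 -3.90). The kept pools held only 1, 4, 30 and 46 counts of it, in the order just given, so that the size of this difference is uncertain.

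MBD3 was at 131 ± 35.5 CPM in muscle, 44.5 ± 16.3 in perirenal fat and 31.8 ± 22.9 in subcutaneous fat. The difference between the fat depots (log2 fell by 0.70 from perirenal to subcutaneous fat, SE 0.236, FDR 0.0123) was not called when the pool was left out of the model (FDR 0.0794), and was larger without the 8 subcutaneous libraries rich in muscle markers (log2 -1.87, SE 0.175, FDR 2.41e-07). HIRA stood at 10.98 ± 3.87 CPM in muscle and did not differ beyond its spread between perirenal fat (5.62 ± 1.44) and subcutaneous fat (4.99 ± 1.998, FDR 0.268), but was lower in subcutaneous fat without those 8 libraries (log2 -0.75, SE 0.211, FDR 0.009). HDAC4 was at 2.12 ± 1.24 CPM in muscle against 0.985 ± 0.443 in perirenal and 0.693 ± 0.321 in subcutaneous fat. Its difference between the depots passed neither with all libraries (FDR 0.0726) nor without those 8 (log2 -1.05, SE 0.531, FDR 0.124). HIST2H2BE averaged 210.0 ± 49.8 CPM in muscle and 195.9 ± 95.4 in subcutaneous fat, which did not differ beyond their spread (FDR 0.25), and 82.0 ± 10.6 in perirenal fat. In the 4 subcutaneous pools poor in muscle markers it was at 104.9 to 133.1 CPM, and without the other 8 it was higher in muscle than in subcutaneous fat (log2 0.80, SE 0.127, FDR 3.97e-05).

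The profiles of the methylation enzymes differed from each other. DNMT1, the maintenance enzyme, was at 46.55 ± 5.26 CPM in perirenal fat and 45.1 ± 8.42 in muscle (FDR 0.531), and lower in subcutaneous fat at 37.7 ± 3.99, although the difference from muscle did not pass without the 8 libraries (FDR 0.166). DNMT3A, the de novo enzyme, was at 159.8 ± 23.1 CPM in muscle, 97.75 ± 21.0 in subcutaneous fat and 61.4 ± 7.605 in perirenal fat, and both steps passed the test with all libraries. Its r with the skeletal muscle markers over the 12 subcutaneous pools was 0.818. The 4 pools poor in them were at 72.6 to 91.55 CPM, and without the other 8 the step between the depots did not pass (log2 0.33, SE 0.137, FDR 0.0619). TET3 was scarce, at 1.65 ± 0.503 CPM in perirenal fat, 1.44 ± 0.937 in muscle and 0.781 ± 0.466 in subcutaneous fat, and its differences from subcutaneous fat did not pass without those 8 libraries (FDR 0.606 against muscle and 0.257 against perirenal fat). TET2 read 270.8 ± 39.1 CPM in muscle, 235.5 ± 60.2 in subcutaneous fat and 22.1 ± 5.83 in perirenal fat, but its perirenal locus was drawn differently. With the overlapping neighbour added, a sum formed after its values were seen, the levels were 307.8 ± 41.0, 315 ± 70.6 and 120.6 ± 19.4 CPM, with the highest perirenal pool at 156.9 and the lowest subcutaneous pool at 206.8.

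**Figure D1:**
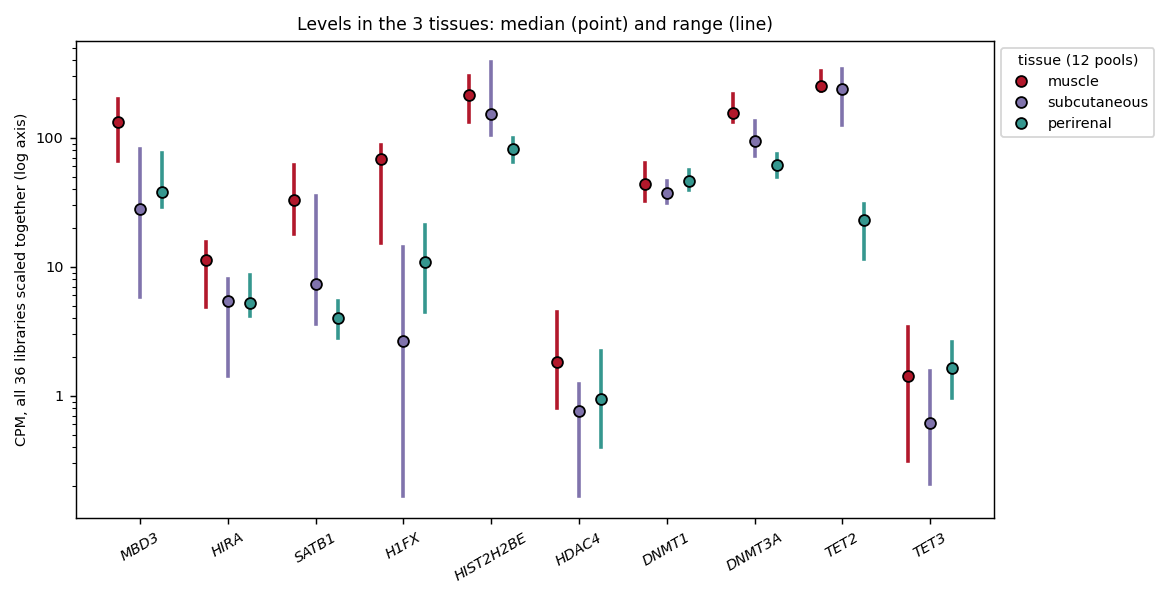
Levels of the 10 genes in muscle, subcutaneous fat and perirenal fat, in CPM on a log axis with all 36 libraries normalized together. Points are medians and lines the range of 12 pools per tissue. For SATB1 the medians fall from 32.7 CPM in muscle to 7.38 in subcutaneous and 3.98 in perirenal fat, while for DNMT1 the 3 ranges overlap.

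By edgeR's quasi-likelihood test at FDR ≤0.05, 8 of 10 members differed between muscle and perirenal fat, all higher in muscle, where 80.3% of all 13283 genes tested were called. Against subcutaneous fat 8 members were called and all were higher in muscle, with 72.1% of all genes called. Between the fat depots 8 members were called, 4 higher in subcutaneous fat (SATB1, HIST2H2BE, DNMT3A and TET2) and 4 higher in perirenal fat (MBD3, H1FX, DNMT1 and TET3), with 66.9% of all genes called. Shares of 8 in 10 therefore stood near those of the whole table. Without TET2 the counts were 7, 8 and 7. Without the 8 subcutaneous libraries rich in muscle markers, 7 members were called between muscle and subcutaneous fat (66.8% of all genes) and 6 between the depots (42.2%). Scaling by library totals alone moved the median of all genes from 0.06 to -0.38 (log2) between muscle and perirenal fat, from 0.03 to -0.15 between muscle and subcutaneous fat and from 0.03 to -0.22 between the depots. On that scale DNMT1 and TET3 no longer differed between muscle and subcutaneous fat, TET3 was lower in muscle than in perirenal fat, and HIRA and HDAC4 were lower in subcutaneous than in perirenal fat.

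The second comparison asked whether the maternal diet altered the genes within a tissue, on CPM normalized within each tissue. In muscle the level of HIRA was 5.18, 4.82, 3.59 and 5.15 CPM in the CN pools F1, F2, M1 and M2, a pool order kept in all lists below. It was 11.03, 8.45, 11.2 and 7.915 CPM in the DG pools and 10.95, 11.6, 8.20 and 9.735 CPM in the HY pools. The CN pools did not overlap with either other diet. HIRA was 2.05-fold higher in DG than in CN (log2 1.04, SE 0.182, FDR 0.0178) and 2.16-fold higher in HY than in CN (log2 1.11, SE 0.183, FDR 0.0128), whereas DG and HY overlapped. The call in CN vs. DG was lost without CN pool M1 (FDR 0.0652), without DG pool M1 (FDR 0.0724) and in a fit of the 8 compared pools alone (FDR 0.0865). The call in CN vs. HY was lost without HY pool F1 (FDR 0.057).

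HDAC4 was scarce, with 9 to 74 counts per muscle pool. Its CN pools were at 0.699, 0.7175, 0.718 and 0.610 CPM, close to each other and below every pool of the other diets. The DG pools were at 3.21, 1.49, 2.42 and 1.325 CPM and the HY pools at 2.13, 2.95, 1.19 and 1.41 CPM. The gene was 2.8-fold higher in HY than in CN (log2 1.49, SE 0.369, FDR 0.0482) and 3.05-fold higher in DG than in CN, where it missed the threshold (log2 1.61, SE 0.367, FDR 0.0543). The CN vs. HY call was lost in the fits without CN pool F1, M1 or M2 and without HY pool F1, F2 or M2 (FDR 0.0541 to 0.168). It was also lost at a random thinning of all libraries to the smallest muscle total (FDR 0.0968), at which the CN vs. DG difference passed (FDR 0.0459).

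**Figure D2:**
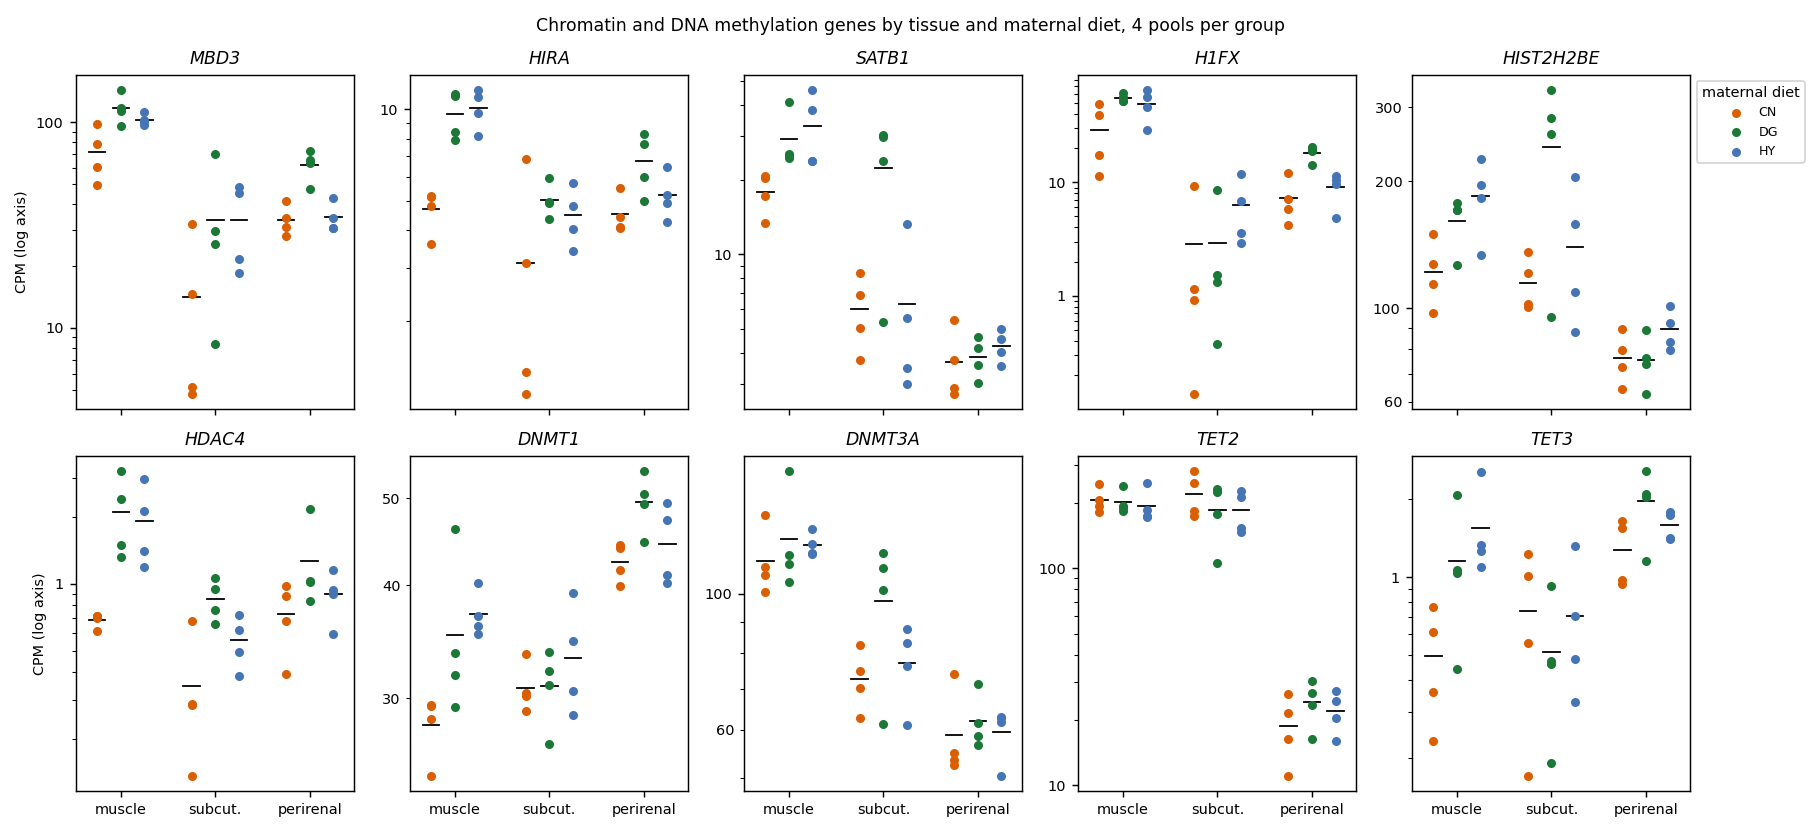
CPM of each gene (log axis, normalized within each tissue) in the 4 pools of each maternal diet, for muscle, subcutaneous fat and perirenal fat. Points are pools and black bars are means. In muscle every CN point of HIRA lies between 3.59 and 5.18 CPM, below all DG and HY points, and in subcutaneous fat the SATB1 points of DG spread from 5.31 to 30.4 CPM.

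By edgeR, 1 of the 10 members was called in muscle CN vs. DG, where 1.02% of the 18157 genes tested were called. In muscle CN vs. HY 2 members were called, against 2.95% of all genes. DESeq2 also called HDAC4 (FDR 0.00712) and MBD3 (FDR 0.0114) in CN vs. DG. In CN vs. HY it also called SATB1 (FDR 0.0117), HIST2H2BE (FDR 0.0231) and TET3 (FDR 0.0304). The other FDRs given for muscle are by edgeR. In DG vs. HY no member and no gene at all was called (0%), with 397 genes and 0 members at an unadjusted p under 0.05, and DESeq2 called no member either. Relative to CN, 9 of 10 members had a log2 difference above 0 in DG and 9 of 10 in HY, with medians of 0.71 and 0.68. Of all genes, 49.6% and 47.9% had a log2 difference above 0, with medians of 0.00 and -0.02. At an unadjusted p under 0.05 there were 8 members in CN vs. DG and 7 in CN vs. HY, against 2964 and 3693 genes. For 4 members the lowest DG pool exceeded the highest CN pool (HIRA, SATB1, H1FX and HDAC4), which held for 5.47% of all genes. For 5 members the lowest HY pool exceeded the highest CN pool (HIRA, SATB1, HDAC4, DNMT1 and TET3), which held for 7.12% of all genes. CN pools are shared by both comparisons, so their likeness is not independent. HIRA, MBD3, SATB1, H1FX and HIST2H2BE were singled out by the study from these same libraries. All 10 members were chosen with earlier results of these data known, so that the direction of none of them is independent evidence.

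MBD3, the NuRD subunit, was at 98.3, 49.5, 60.35 and 78.1 CPM in the CN pools of muscle. Its DG pools were at 144, 117.3, 95.5 and 114 CPM and its HY pools at 103, 96.7, 100.2 and 112 CPM. CN pool F1 reached into both other groups, and the log2 differences of 0.72 for DG (SE 0.181, FDR 0.0757) and 0.53 for HY (SE 0.181, FDR 0.122) did not pass. H1FX varied more among the CN pools (48.9, 11.4, 17.4 and 39.0 CPM) than among the DG pools (52.6, 61.15, 56.0 and 52.6 CPM), and the HY pools were at 56.0, 29.0, 46.5 and 65.4 CPM. The log2 difference was 0.93 in DG (SE 0.358, FDR 0.233) and 0.75 in HY (SE 0.358, FDR 0.254).

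SATB1 was at 13.4, 20.8, 20.2 and 17.2 CPM in the CN pools of muscle and at 25.4, 24.5, 41.2 and 25.1 CPM in the DG pools. Its HY pools were at 38.15, 46.1, 23.8 and 23.9 CPM. All pools of DG and HY lay above those of CN, with log2 differences of 0.70 (SE 0.238, FDR 0.182) and 0.88 (SE 0.239, FDR 0.0614). HIST2H2BE ranged from 97.3 to 150.0 CPM in the CN pools, while DG ranged from 126.7 to 177 and HY from 134 to 226.5, so that its groups overlapped. It was higher by a log2 of 0.40 in DG (SE 0.171, FDR 0.27) and of 0.60 in HY (SE 0.171, FDR 0.0756), neither of which passed.

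Among the methylation enzymes, DNMT1 was at 28.5, 29.4, 29.5 and 24.6 CPM in the CN pools of muscle and at 35.3, 40.2, 37.0 and 36.1 CPM in the HY pools. These groups did not overlap, but the log2 difference of 0.41 (SE 0.135, FDR 0.11) did not pass. TET3 was read at only 4 to 61 counts per muscle pool and averaged 0.493 ± 0.242 CPM over the CN pools, against 1.16 ± 0.6815 for DG and 1.55 ± 0.664 for HY (SD, n = 4). Its log2 difference was 1.64 between HY and CN (SE 0.492, FDR 0.0876) and 1.20 between DG and CN (SE 0.497, FDR 0.26). DNMT3A averaged 113 ± 14.65 CPM over the CN pools, 122.7 ± 24.3 over DG and 120.2 ± 5.22 over HY, and TET2 averaged 206.8 ± 27.65, 202 ± 25.2 and 194.6 ± 35.1 CPM. For these last genes all differences between diets were smaller than their own standard errors.

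Marker sums of some other cell types stood lower in CN muscle, with partly overlapping ranges, and these differences were not tested. Summed endothelial markers (4 genes tested of a list of 5) were at 479 to 570 CPM in CN muscle, with 552 to 739 for DG and 589 to 715 for HY, and summed leukocyte markers at 10.1 to 14.2, 13.6 to 16.1 and 12.8 to 23.2 CPM. Skeletal muscle markers were at 75400 to 95300 CPM in CN muscle, with 75000 to 107000 for DG and 72700 to 94600 for HY, with no such order. In CN, DG and HY muscle, fibroblast markers had median sums of 7120, 5710 and 6510 CPM and markers of dividing cells 238, 240 and 249 CPM. Brown adipocyte markers had medians of 52.3, 49.1 and 50 CPM and erythroid markers 4.14, 6.21 and 6.52 CPM. Summed adipocyte markers (6 genes tested of a list of 8, with LEP at 0) were at 85.8 to 126 CPM in CN muscle, with 113 to 178 for DG and 89.4 to 170 for HY. The Pearson r with the mean log2 adipocyte marker level over the 12 muscle pools was 0.795 for HDAC4 and 0.70 for HIRA, the called members, and 0.685 for TET3. HDAC4 had an r of 0.63 with the endothelial and 0.546 with the leukocyte markers. Over the same pools the log2 level of HIST2H2BE had a Pearson r of 0.906 with the mean endothelial marker level, SATB1 one of 0.766 and HIRA one of 0.677. H1FX had an r of 0.812 with the skeletal muscle markers. Without the pair of pools farthest from the median marker level, the adipocyte values were 0.603 for HDAC4, 0.607 for HIRA and 0.392 for TET3. HDAC4 then had an r of 0.376 with the endothelial and 0.8 with the leukocyte markers. The endothelial values became 0.855 for HIST2H2BE, 0.591 for SATB1 and 0.571 for HIRA, and H1FX had 0.737 with the skeletal muscle markers. The 12 muscle pools share diet and depth, and the part of the other cell types in the diet differences was not tested. In such bulk RNA, fewer cells of a type and less RNA per cell cannot be told apart.

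**Figure D3:**
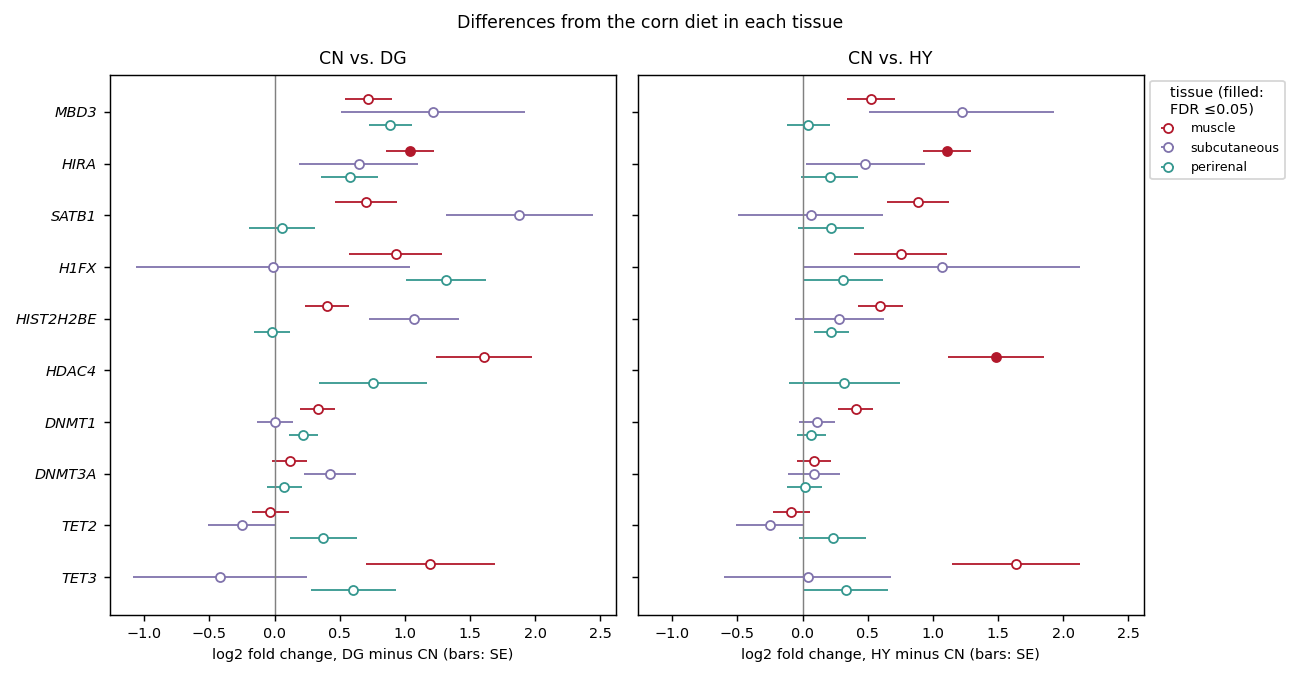
Log2 fold change of each gene in DG relative to CN (left) and in HY relative to CN (right) in the 3 tissues, with SE bars from the fit of 12 pools per tissue. Filled points passed FDR ≤0.05. These were HIRA in muscle on both sides and HDAC4 in muscle on the right. HDAC4 was below the count filter in subcutaneous fat and is not drawn there.

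In perirenal fat no member passed in CN vs. DG, CN vs. HY or DG vs. HY, and edgeR called no gene of 17926 in any of them (0% each, with 1765, 420 and 1786 genes and 3, 0 and 2 members at an unadjusted p under 0.05). DESeq2 called MBD3 and H1FX in CN vs. DG and MBD3 in DG vs. HY. MBD3 was at 41.3, 27.9, 31.1 and 34.2 CPM in the CN pools, at 47.3, 65.6, 63.3 and 72.8 CPM in the DG pools and at 30.6, 30.7, 34.3 and 42.9 CPM in the HY pools. All DG pools thus lay above all CN and HY pools. The log2 difference from CN was 0.89 (SE 0.165, FDR 0.0695) and that from HY 0.85 (SE 0.165, FDR 0.231), while CN and HY overlapped. As the CN and DG pools did not overlap, the two-sided exact permutation test could only give p = 0.0286, the smallest that 70 splits of 8 pools allow. Any gene whose pools do not overlap gets this value, so that it adds nothing to the separation. Without DG pool F1, the lowest of its group, the FDR in CN vs. DG was 0.0274.

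H1FX in perirenal fat was at 12.1, 5.77, 4.20 and 7.19 CPM in the CN pools and at 14.1, 18.7, 20.5 and 19.8 CPM in the DG pools. Its HY pools were at 10.5, 4.84, 11.4 and 9.57 CPM, below all DG pools. The log2 difference was 1.32 from CN (SE 0.307, FDR 0.128) and 1.01 from HY (SE 0.303, FDR 0.333). DNMT1 was at 44.0, 41.7, 44.3 and 39.9 CPM in CN and at 44.7, 50.5, 49.3 and 53.5 CPM in DG, with the highest CN pool just under the lowest DG pool. Its log2 difference was 0.22 (SE 0.11, FDR 0.545).

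For these 3 members the lowest DG pool of perirenal fat exceeded the highest CN pool, against 4.06% of all genes, and for MBD3 and H1FX it also exceeded the highest HY pool, against 3.14% of all genes. The log2 difference of DG from CN was above 0 for 9 of 10 members and for 47.3% of all genes. Its median was 0.48 for the members and -0.02 for all genes. HIRA averaged 4.53 ± 0.686 CPM for CN, 6.74 ± 1.51 for DG and 5.22 ± 0.932 for HY (SD, n = 4), with a log2 difference of 0.58 in CN vs. DG (SE 0.218, FDR 0.372). In CN vs. HY the median difference of the members was 0.22, against 0.01 for all genes. SATB1 ranged from 2.73 to 5.43 CPM over all 12 perirenal pools and HIST2H2BE from 62.7 to 101.4 CPM, with overlapping diets.

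In subcutaneous fat 9 members could be tested, since HDAC4 had 1 to 16 counts per pool and stayed below the filter. None was called in CN vs. DG, CN vs. HY or DG vs. HY, where edgeR called no gene of 17745 (0% each, with 2655, 776 and 3221 genes and 2, 0 and 2 members at an unadjusted p under 0.05). DESeq2 called SATB1 in CN vs. DG and in DG vs. HY. SATB1 was at 8.41, 6.82, 5.05 and 3.75 CPM in the CN pools, at 23.8, 30.4, 5.31 and 29.7 CPM in the DG pools and at 2.99, 13.2, 3.49 and 5.51 CPM in the HY pools. Pools F1, F2 and M2 of DG were high and pool M1 was as low as CN, so that the groups overlapped. The log2 difference was 1.88 in CN vs. DG (SE 0.564, FDR 0.259) and 1.82 in DG vs. HY (SE 0.561, FDR 0.15), and the latter passed without HY pool F2 (FDR 0.0432).

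HIST2H2BE had the same high and low pools, with 121.5, 136.3, 100.5 and 102.2 CPM in CN and 329.8, 282.3, 95.2 and 259 CPM in DG. Its HY pools were at 109.5, 204.7, 88.1 and 158.1 CPM. The log2 difference was 1.07 in CN vs. DG (SE 0.346, FDR 0.264) and 0.79 in DG vs. HY (SE 0.344, FDR 0.256). MBD3 spread from 4.78 to 69.9 CPM and H1FX from 0.137 to 11.9 CPM over the 12 pools, and DNMT1 only from 26.7 to 39.2 CPM.

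The skeletal muscle marker sum of these pools moved with the same genes. It was 11320, 33710, 1765 and 5167 CPM in the CN pools, 87090, 26680, 542.6 and 39430 CPM in the DG pools and 486.9, 72980, 1812 and 9264 CPM in the HY pools. Pools F1, F2 and M2 of DG, which were high in SATB1 and HIST2H2BE, were also rich in muscle markers. Over the 12 pools, which share diets and depth, the Pearson r of log2 levels with the muscle markers was 0.832 for HIST2H2BE (Spearman rho 0.832), 0.818 for DNMT3A (rho 0.867) and 0.811 for SATB1 (rho 0.832), and -0.527 for TET3. Without the pair of pools farthest from the median marker level, r was 0.846, 0.709 and 0.808. With the muscle marker level as a covariate the log2 difference of SATB1 was 1.35 in CN vs. DG (FDR 0.0571) and 1.30 in DG vs. HY (FDR 0.0644). That of HIST2H2BE was 0.74 (FDR 0.0828) and 0.38 (FDR 0.294).

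**Figure D4:**
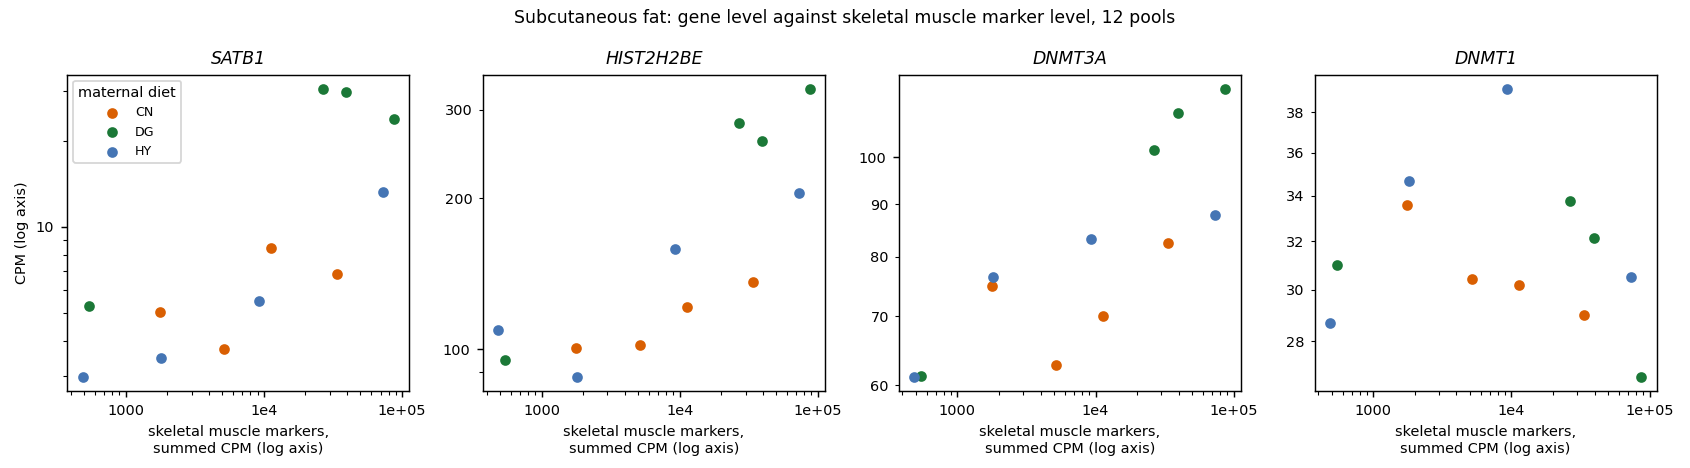
CPM of SATB1, HIST2H2BE, DNMT3A and DNMT1 in the 12 subcutaneous pools against the summed CPM of skeletal muscle markers in the same pools (both axes log), coloured by maternal diet. The points of the first 3 genes lie higher towards the right (Pearson r 0.811, 0.832 and 0.818), and DNMT1 stays between 26.7 and 39.2 CPM.

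Whether a diet response differed between tissues was tested for each pair of diets and each pair of tissues, 90 tests over the members in all. The test called 1 of them. The DG vs. HY difference of SATB1 was larger in subcutaneous than in perirenal fat by 2.05 on the log2 scale (SE 0.588, FDR 0.0408), in a contrast in which 6.26% of all 13283 genes were called. The call was lost with no filter on low counts (FDR 0.0566) and in most fits that left out a pool: CN F2, M1 or M2, DG F1, F2 or M2, or HY F1, M1 or M2 (FDR 0.0519 to 0.157). In the same contrast HIST2H2BE differed by 0.95 (SE 0.345, FDR 0.0959) and H1FX by -2.41 (SE 0.822, FDR 0.0804). In CN vs. DG between the fat depots 0.0226% of all genes were called and no member. For the remaining 7 contrasts the share was 0%, with 300 to 2433 genes at an unadjusted p under 0.05. HIRA was called in muscle and in neither depot. HDAC4 was called in muscle and not in perirenal fat, and was not tested between diets within subcutaneous fat. Their muscle responses were therefore not shown to differ from those in fat. In CN vs. HY the muscle response exceeded the perirenal response by 0.90 for HIRA (SE 0.392, FDR 0.709) and by 1.11 for HDAC4 (SE 0.546, FDR 0.764).

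No member differed between male and female pools in any tissue at FDR ≤0.05, in a fit with diet as a covariate that called 0 genes in muscle, 0 in subcutaneous fat and 4 in perirenal fat. The smallest value was that of MBD3 in subcutaneous fat, which averaged 35.3 CPM in the female and 18.6 CPM in the male pools (FDR 0.32). It was the only member at an unadjusted p under 0.05.

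The other genes of these pathways were followed in 11 lists, whose counts and medians also include members such as HIRA and HDAC4. In muscle, the histone variant chaperones included HIRA and its partner UBN1, a subunit of the same H3.3 chaperone complex, which was higher in HY than in CN (log2 1.45, SE 0.273, FDR 0.0193). Of 11 chaperones tested, 1 was called higher in DG (HIRA) and 2 in HY (HIRA and UBN1) relative to CN. Of all genes, 1.02% and 2.95% were called in these comparisons. The list medians were 0.19 and 0.25 against 0.00 and -0.02 for all genes. Among 16 polycomb and trithorax genes, KDM6B, which removes methyl groups from lysine 27 of histone H3, was higher in DG (log2 0.87, SE 0.186, FDR 0.0425) and in HY (0.77, SE 0.186, FDR 0.0461). WDR5, a core subunit of H3K4 methyltransferase complexes, was higher in HY (0.70, SE 0.165, FDR 0.0423).

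Of 12 BAF remodelling genes, SMARCC1, a scaffold subunit, was higher in HY than in CN (log2 1.25, SE 0.308, FDR 0.0473), and the list median was 0.25 in CN vs. DG and 0.19 in CN vs. HY. The methyl donor list had 14 genes tested in muscle, of which SHMT1, a folate cycle enzyme (log2 0.81, SE 0.19, FDR 0.0418), and AHCYL2, related to the enzyme that clears S-adenosylhomocysteine (0.75, SE 0.169, FDR 0.0354), were higher in HY than in CN. Its median was 0.18 in CN vs. HY and 0.03 in CN vs. DG. Apart from KDM6B none of the listed genes that are no member was called in CN vs. DG, and this KDM6B call was lost without CN pool F1, M1 or M2, without DG pool F1 or M1 and in the fit of 8 pools. The 6 such calls in CN vs. HY were lost altogether without CN pool M1 or M2 or HY pool F1 or F2.

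The remaining lists had no called gene in muscle beside HDAC4 among 15 histone deacetylases, whose median was -0.11 in CN vs. DG and -0.07 in CN vs. HY. The medians in CN vs. DG and CN vs. HY were 0.03 and 0.02 for 13 NuRD genes, 0.05 and 0.02 for 12 genes of DNA methylation and demethylation, and 0.04 and -0.02 for 7 methyl-CpG binding proteins. They were 0.36 and 0.32 for 8 class II deacetylase partners, 0.04 and 0.00 for 9 linker and variant histones, and 0.00 and 0.01 for 9 AT-rich DNA loop organizers. By edgeR no listed gene was called in DG vs. HY in muscle or in any comparison in fat. The largest list medians in subcutaneous fat were 0.44 for class II deacetylase partners and 0.43 for loop organizers in DG vs. HY and 0.43 for class II deacetylase partners in CN vs. DG.

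After the mean of each tissue was subtracted, the members fell into pairs that varied alike over the 36 libraries, which share tissue, diet and muscle RNA content. SATB1 and HIST2H2BE had a Pearson r of 0.864, MBD3 and H1FX one of 0.856, DNMT1 and TET3 one of 0.767, and MBD3 and HIRA one of 0.756. Of 9639 genes with a symbol tested in all 3 tissues, those alike to MBD3 included NCDN (r = 0.942) and PLEC, and the most alike to HIRA were DYNC1H1 (r = 0.916), FAM129B and ZNF777. LNPEP (r = 0.931), AMOTL1 and AMOT were nearest to SATB1. For H1FX they were THAP3 (r = 0.929), FKBP8 and SIVA1, and for HIST2H2BE they were BZW2 (r = 0.904), PPM1B and FKBP3. The methylation enzymes had weaker neighbours: ARHGEF7 (r = 0.826), ARID1A and ANKRD11 for DNMT1, AUTS2 (r = 0.869), ANKRD10 and GBF1 for DNMT3A, CEP97 (r = 0.703), YTHDC2 and TMPO for TET2, and PHC1 (r = 0.788), DNMT1 and TANC1 for TET3. HDAC4 was not tested in subcutaneous fat and has no such neighbours here.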

How the data were processed

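The deposited values were raw counts per locus, which the authors made from single-end mRNA-Seq reads aligned to Oar_v3.1. The submitters' processing notes name TopHat2 2.0.4, Cufflinks 2.1.1 and HTSeq, whose strand setting is not given in the sources used here. Loci were drawn separately in each tissue, so extents differ between tissues. Loci of the same name were summed. edgeR 4.0.16 in R 4.3.3 was run with TMM factors, filterByExpr (minimum count 10, minimum total 15) and the robust quasi-likelihood test on all 12 pools of a tissue, with Benjamini-Hochberg adjustment over all genes and a threshold of FDR ≤0.05. Tissues were compared over 36 libraries with the pool as a block, because the pools of a number hold the same fetuses (deviations of the same pool in different tissues correlated at a mean r of 0.06, of different pools at -0.005). Exact permutation tests used log2(CPM + 0.5). Scripts were tested on simulated data. Alternatives were RLE factors, no filter, DESeq2 1.42.0, a replicate block, 8 pools, sex, separate loci and left-out pools, and thinning, library totals and leaving out 8 subcutaneous libraries rich in muscle markers were added after seeing the data. The members and lists were chosen with earlier results of these data known. Named genes were all members, up to 3 called genes per list and comparison, and the 3 genes most alike to each member, of which 1 is not reported here. No exon lengths or genome were used, so no level was compared between genes.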

Additional observations from a re-analysis of the deposited data

Results flagged for a closer look

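In 90 groups of 4 pools, 8 had a pool whose gap to the nearest other pool took up more of the range than Dixon's critical value for 4 samples, and chance flags about 1 in 20 groups. In muscle these were SATB1 in DG pool M1 (41.2 CPM, the others 24.5 to 25.4), HIST2H2BE in DG pool F1 (126.7 CPM, the others 170.9 to 177.4) and TET3 in HY pool F2 (2.54 CPM, the others 1.09 to 1.33). In subcutaneous fat H1FX stood out in pool F1 of CN (9.335 CPM, the others 0.137 to 1.15) and of DG (8.54 CPM, the others 0.379 to 1.515). In perirenal fat HDAC4 stood out in DG pool F2 (2.18 CPM, the others 0.836 to 1.03), and DNMT3A in pool F1 of CN (73.95 CPM, the others 52.6 to 55.1) and of HY (50.5 CPM, the others 61.7 to 63.0).

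The DG vs. HY response of SATB1 differed between the fat depots by 2.05 on the log2 scale by the test of the interaction (FDR 0.0408). The subcutaneous pools that were high in SATB1 were also high in skeletal muscle markers, and the part of that in the difference was not tested.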

How the results depend on the processing

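Of 76 member differences at least as large as their standard errors, none changed direction in 1254 values under the alternatives, and 1191 of these stayed on their side of the threshold. Choosing differences by size makes a change of direction less likely. The 76 include differences between tissues, so that these counts do not describe the few diet calls. Of 42 differences smaller than their standard errors, 21 changed sign under at least 1 alternative. Some differences of this size are part of the counts of members above 0 given for the diets. The cause of the changes below was not tested. In muscle CN vs. DG (1 member called) there were 2 members with no filter, 3 with DESeq2, 2 with sex as a covariate, 2 after thinning and 0 with the 8 compared pools alone, and the other listed genes called numbered 2, 5, 2, 2 and 0 instead of 1. In muscle CN vs. HY (2 members) DESeq2 called 5 members, and 11 other listed genes instead of 6, of which the 8 pools alone gave 3. The main fit did not pair pools by replicate number, and pools of different diets held fetuses of different dams. Deviations of same-numbered pools of different diets correlated at -0.326 to 0.184 in muscle, -0.0524 to 0.252 in perirenal and -0.417 to 0.639 in subcutaneous fat. Their means were -0.0443, 0.0546 and 0.191, against 0.0168, -0.0181 and -0.0676 for pools of different diets and numbers. With the replicate number as a block, CN vs. HY in muscle gave 1 member (HIRA) and 3 other listed genes, and the other 8 diet comparisons kept their member counts. DESeq2 called 1 member in subcutaneous CN vs. DG and 1 in DG vs. HY, and 2 in perirenal CN vs. DG and 1 in DG vs. HY, and perirenal CN vs. DG gave 1 with no filter. The tissue interaction (1 call) gave 0 with no filter and 2 with library totals. Leaving out each pool in turn gave 0 to 2 members in muscle CN vs. DG (0 without CN M1 or DG M1) and 0 to 4 in CN vs. HY (0 without HY F1, 4 without CN F2). It gave 0 to 2 and 0 to 13 other listed genes (13 without CN F2), 0 to 1 members in subcutaneous DG vs. HY (1 without HY F2) and in perirenal CN vs. DG (1 without DG F1), and 0 to 4 interaction calls (4 without DG M1). Member counts between tissues stayed within 1.5 times under all alternatives. HDAC4 and TET3 were read at 1 to 74 counts per library.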
